A study of Mus musculus with 26 samples.

Results

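Long noncoding RNAs of the nucleus and genes that regulate splicing were followed in mice carrying lung metastases of B16F10 cells, a mouse melanoma line, after treatment with propranolol, a blocker of β-adrenergic receptors, or no treatment. The set held 35 of the 55416 genes listed in the count tables: 2 noncoding RNAs (Neat1, Malat1), 9 genes of serine/arginine-rich (SR) proteins, 5 genes of kinases of splicing factors (Clk1 to Clk4 and Prpf4b), the cold-induced RNA-binding genes Cirbp and Rbm3, and 17 further genes of nuclear speckle, U1 particle, RBM, TRA2 and DEAD-box proteins. Genes were picked by name and role and by their levels and propranolol changes in these same libraries, so the changes below describe the genes and are no independent test of them. All 35 passed the filter on low counts in each of the 3 comparisons.

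C57BL/6 mice were given B16F10 cells by vein, and polyadenylated RNA was sequenced from 6 groups: lungs of propranolol-treated mice (5 libraries) and of untreated mice (5), monocytes isolated from such lungs by flow sorting (4 treated, 4 untreated), and CD4 T cells taken out by bead selection (4 treated, 4 untreated). Sex, age, dose and duration of treatment were not used here. All mice carried the tumour cells, so the untreated groups are tumour-bearing as well. The labels do not say whether each library came from its own animal, and p-values and standard errors (SE) therefore measure the spread between libraries.

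Malat1 gathers in nuclear speckles, where splicing factors are stored, and Neat1 is the scaffold on which paraspeckles form. SR proteins bind exons and recruit the spliceosome, and CLK kinases phosphorylate SR proteins and so release them from speckles. Many genes of this machinery regulate their own output through retained introns or exons that lead to decay of the transcript. Cirbp and Rbm3 are known for their induction by mild cold in cultured mammalian cells. Mature Malat1 and the long form of Neat1 end in an RNA triple helix next to an encoded run of adenines in place of an added poly(A) tail, and the libraries were primed on poly(A), so the values are of the molecules caught in this way.

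Library totals were 29650148 to 43447855 counts in treated and 33232082 to 47618634 in untreated lungs, 36277687 to 46407803 in treated and 36371431 to 48306925 in untreated libraries labelled monocytes, and 27742422 to 42484125 in treated and 17625672 to 35600275 in untreated libraries labelled CD4 T cells. Each member had between 816 counts (Srsf4) and 131202 counts (Ddx5) per library. Cell type markers differed with treatment in all 3 kinds of material. As plain CPM, which are counts scaled to a common library total, 15 melanocyte genes summed to 1247 to 11931 in treated lungs and 17927 to 27098 in untreated lungs, and 15 endothelial genes to 4276 to 6606 in treated and 2157 to 3813 in untreated lungs. Immune markers were higher in treated lungs, with all 14 B cell, 14 T cell and 10 CD8 or cytotoxic genes, 8 of 9 neutrophil genes tested and 10 of 14 monocyte genes called higher, and 1 neutrophil and 1 monocyte gene lower. The libraries labelled monocytes also held endothelial RNA, with Cdh5 at 1242 to 1273 CPM in treated and 1635 to 1750 CPM in untreated libraries, beside the monocyte gene Cd14 at 588 to 702 CPM in treated and 604 to 752 CPM in untreated libraries. The alveolar type 2 gene Sftpc had 1977 to 2329 CPM in treated and 2189 to 2397 CPM in untreated monocyte libraries. The melanocyte gene Tyrp1 had 1111 to 1610 CPM in treated and 976 to 1108 CPM in untreated monocyte libraries. All 15 endothelial genes were called lower and 12 of 15 melanocyte genes higher in the treated monocyte libraries. The 5 CD4 T cell genes summed to 1539 to 2098 CPM in treated and 990 to 1011 CPM in untreated libraries labelled CD4 T cells (3 of 5 called higher), and the 14 T cell genes to 6737 to 7450 CPM in treated and 5647 to 5788 CPM in untreated libraries (11 of 14 called higher, 1 lower). Cd4 itself went the other way, at 393 to 528 CPM in treated and 640 to 649 CPM in untreated libraries, and Cd14 at 61.4 to 73.7 CPM in treated against 0.618 to 1.93 CPM in untreated libraries. The part of these cells in the results below was not tested except where a value is given. In such bulk material, fewer cells of a type and less RNA per cell cannot be told apart.

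The promoters of 4 genes are shown because the results turn on them: Cirbp, called higher in every kind of material on the scale used for the tests, Malat1, which moved in opposite directions in lungs and in libraries labelled CD4 T cells, Leng8, which stood next to Neat1 in lungs, and Srsf5, the SR gene with the largest change in lungs. Each window runs from 250 bases before to 50 bases after a transcription start of RefSeq on build GRCm38.p6, at chr10:80167589-80167888 on the plus strand for Cirbp, chr19:5802623-5802922 on the minus strand for Malat1, chr7:4136806-4137105 on the plus strand for Leng8 and chr12:80945249-80945548 on the plus strand for Srsf5. Capitals mark every match, on either strand, to the GC box GGGCGG, the CCAAT box CCAAT, the ETS site CCGGAAGT, the cAMP response element TGACGTCA, the heat shock element core GAANNTTC and TCCCCGCC, an octamer described as a mild-cold response element of the Cirbp promoter.
Cirbp: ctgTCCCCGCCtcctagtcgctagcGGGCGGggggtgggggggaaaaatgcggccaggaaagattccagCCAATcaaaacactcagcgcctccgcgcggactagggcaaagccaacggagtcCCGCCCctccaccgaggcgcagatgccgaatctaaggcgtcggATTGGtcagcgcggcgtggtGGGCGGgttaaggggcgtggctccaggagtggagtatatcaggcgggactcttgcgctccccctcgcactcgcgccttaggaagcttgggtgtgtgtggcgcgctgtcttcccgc
Malat1: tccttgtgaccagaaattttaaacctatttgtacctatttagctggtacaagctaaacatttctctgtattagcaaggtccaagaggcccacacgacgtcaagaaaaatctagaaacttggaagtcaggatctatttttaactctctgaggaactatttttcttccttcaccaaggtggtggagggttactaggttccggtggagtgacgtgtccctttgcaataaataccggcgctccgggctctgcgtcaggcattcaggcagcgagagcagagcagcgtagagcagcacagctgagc
Leng8: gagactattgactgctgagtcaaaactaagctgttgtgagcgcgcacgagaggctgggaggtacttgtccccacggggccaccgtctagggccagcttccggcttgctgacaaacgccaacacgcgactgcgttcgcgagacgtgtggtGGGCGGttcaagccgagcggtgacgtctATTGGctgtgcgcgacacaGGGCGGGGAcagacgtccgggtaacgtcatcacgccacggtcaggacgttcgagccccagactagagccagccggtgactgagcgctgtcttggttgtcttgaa
Srsf5: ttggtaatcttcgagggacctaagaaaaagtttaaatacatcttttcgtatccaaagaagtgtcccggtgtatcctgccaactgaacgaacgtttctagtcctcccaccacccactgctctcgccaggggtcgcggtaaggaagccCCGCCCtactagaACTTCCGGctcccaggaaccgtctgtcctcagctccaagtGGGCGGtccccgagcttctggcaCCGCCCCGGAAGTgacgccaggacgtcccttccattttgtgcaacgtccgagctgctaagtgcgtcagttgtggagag
The Cirbp window held the octamer at base 4, GC boxes at bases 26, 123 and 186 and CCAAT boxes at bases 70 and 166, counted from 1 at the 5′ end. The Leng8 window held the octamer at base 198, overlapping a GC box at base 197, a further GC box at base 150 and a CCAAT box at base 178. Cirbp and Leng8 each have another matched start, not shown, whose window held the GC box and none of the other marked letters. The Srsf5 window held GC boxes at bases 147, 200 and 223 and ETS sites at bases 160 and 228, the last overlapping the third GC box by its first base. These letters occur nowhere in the Malat1 window, whose GC content was 47.0%, against 65.7% for Cirbp, 61.3% for Leng8 and 56.0% for Srsf5.

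RefSeq promoters were matched for 30 of the 35 genes, 40 windows in all, with no entry used for Neat1, Clk1, Rbm3, Luc7l and Pnisr. Their median GC content was 64.8%, against 52.7% over all 32851 promoters of the table. The GC box stood in 70.0% of the 40 windows and in 35.7% of all promoters, and the ETS site in 15% and 3.89%. The CCAAT box was about as frequent in both, at 40.0% and 37.4%. The octamer stood in the windows of 3 genes (Cirbp, Leng8 and Srsf7), which is 7.5% of the windows against 5.38% of all promoters. The cAMP response element stood in windows of Clk4 and Tra2a (5% against 1.79%) and the heat shock element core in windows of Ddx17 and Tra2b (5% against 7.86%). These shares describe letters in a window and say nothing of binding.

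Levels in untreated material came first. Per kilobase of exon, Ddx5, a DEAD-box RNA helicase, and Malat1 were the 2 highest of the 35 genes in each kind of material. Ddx5 had 138 ± 6.1 CPM per kilobase in untreated lungs, 226 ± 10.3 in untreated libraries labelled monocytes and 321 ± 10.2 in untreated libraries labelled CD4 T cells (SD, n = 5, 4 and 4). Malat1 had 77.2 ± 20.3 CPM per kilobase in untreated lungs, 104 ± 2.7 in untreated libraries labelled monocytes and 503 ± 37.1 in untreated libraries labelled CD4 T cells. It stood below Ddx5 in lungs and monocyte libraries and above Ddx5 in CD4 T cell libraries. Nktr, a cyclophilin-related protein with SR repeats, was lowest in lungs and monocyte libraries, at 5.23 ± 0.38 and 5.72 ± 0.18 CPM per kilobase.

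**Figure D1:**
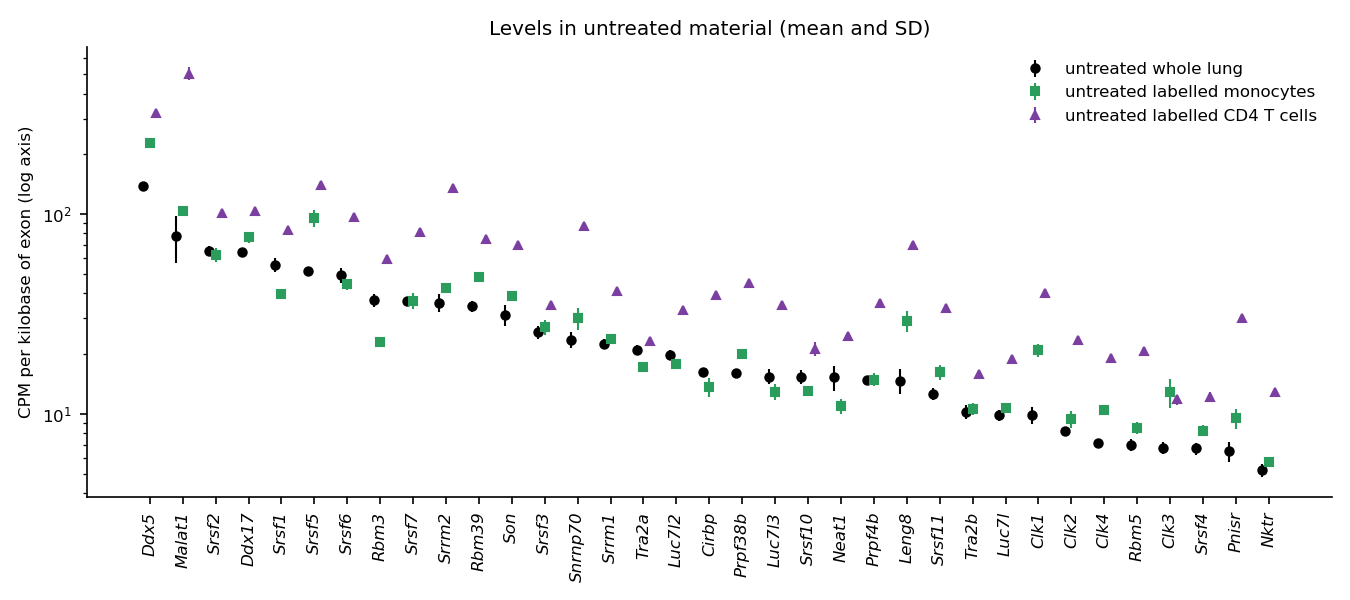
Mean level of each gene in untreated material as CPM per kilobase of exon on a log axis, with the SD as bars, for whole lung (n = 5), libraries labelled monocytes (n = 4) and libraries labelled CD4 T cells (n = 4). The libraries labelled CD4 T cells lie above whole lung for nearly every gene, with Malat1 at 503 and Ddx5 at 321.

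In plain CPM, every untreated library labelled CD4 T cells lay above every untreated lung for 34 of the 35 genes, with a median ratio of 2.22, and above every untreated monocyte library for 34, with a median ratio of 2.08. The exceptions were Tra2a against lung, at a ratio of 1.10, and Clk3 against monocytes, at 0.924. The ratio to lung was widest for Malat1 at 6.51, Leng8 at 4.78, Pnisr at 4.63 and Clk1 at 4.08. Monocyte libraries and lungs lay closer together. All monocyte libraries lay above all lungs for 16 genes, and all lungs above all monocyte libraries for 5. Lung and monocyte libraries came from a different count table than the CD4 T cell libraries, and the kinds of material were prepared in different ways, so the levels are given as a description with no test.

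Propranolol changes are log2 ratios, treated over untreated, and a gene was called where its adjusted p in a fit over all genes was at most 0.05. Libraries were scaled by trimmed means of log ratios (TMM), which sets the bulk of genes to no change, and 2 other scales are given where they matter: library totals alone, and for lungs the level of resident lung cell markers. In whole lung 20 of the 35 genes were called higher, 8 lower and 7 not called, where 70.8% of all 18639 genes tested were called, 35.5% higher and 35.3% lower. In libraries labelled monocytes 2 were called higher, 6 lower and 27 not called, where 30.5% of 18236 genes were called, 14.3% higher and 16.1% lower. In libraries labelled CD4 T cells 16 were called higher, 3 lower and 16 not called, where 60.0% of 16550 genes were called, 30.1% higher and 29.9% lower. The median log2 change of the 35 genes was 0.24 in lungs, -0.03 in monocyte libraries and 0.25 in CD4 T cell libraries, beside 0.03, 0.02 and -0.04 over all genes tested. The counts are given for description, since these changes were in view when the genes were picked.

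**Figure D2:**
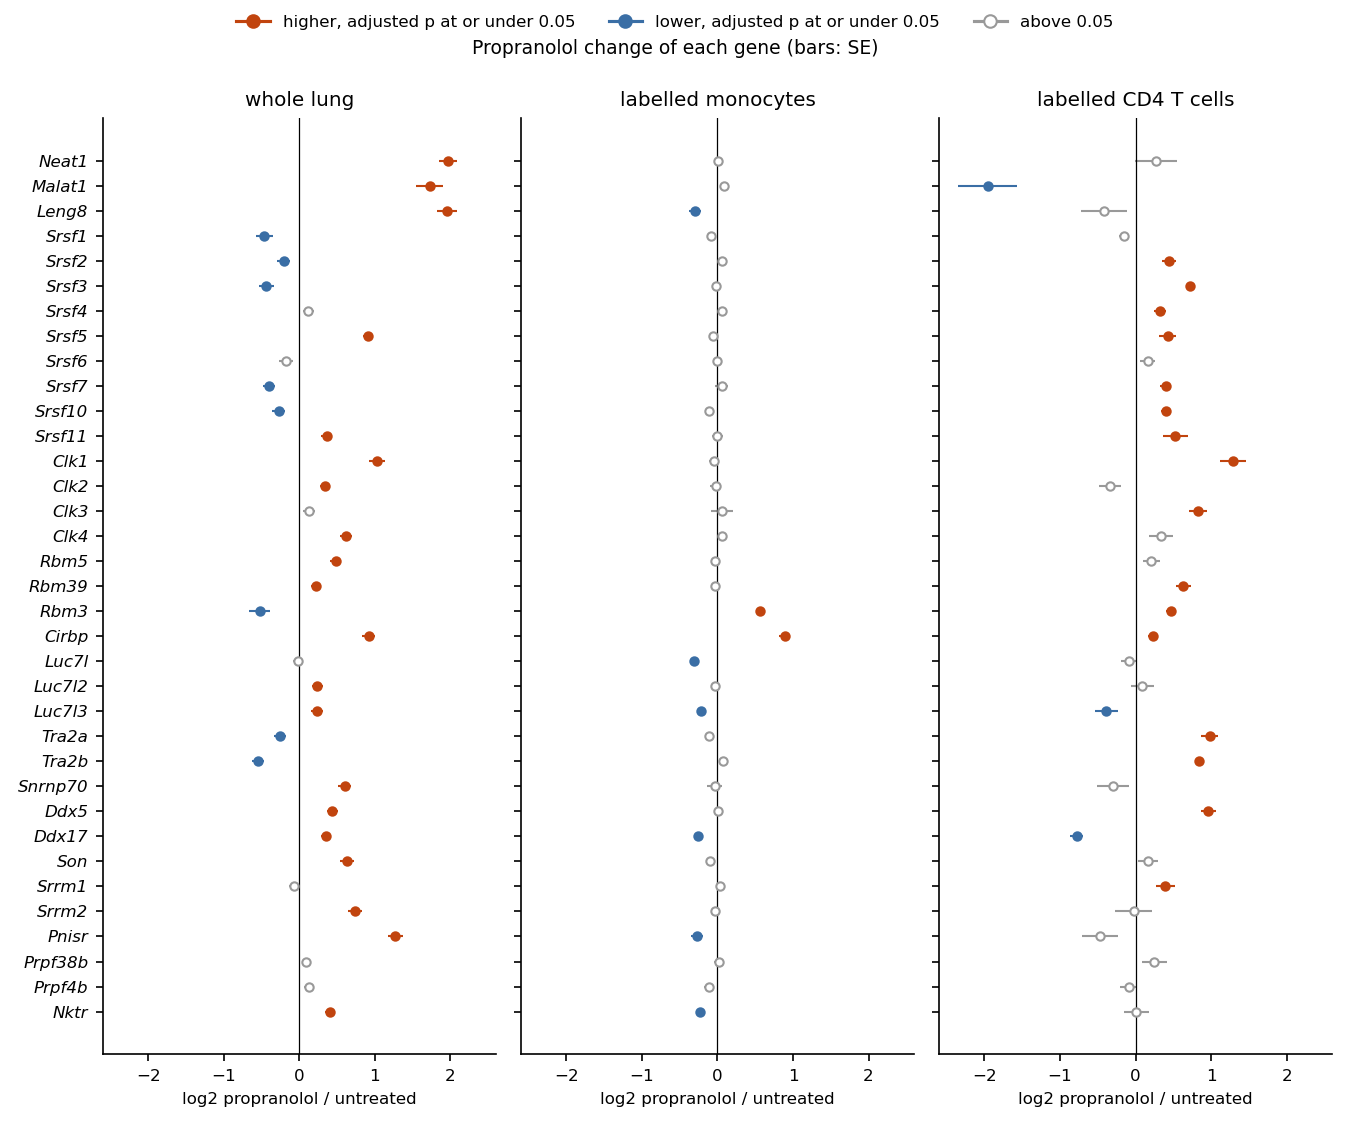
Log2 change, propranolol over untreated, of each of the 35 genes on the TMM scale with its SE, in whole lung, libraries labelled monocytes and libraries labelled CD4 T cells. Filled points passed an adjusted p of 0.05, and many lung and CD4 T cell calls depend on the scaling. Neat1, Malat1 and Leng8 stand apart on the right in lung, Cirbp and Rbm3 in monocytes, and Malat1 on the left in CD4 T cells.

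In whole lung 5 of the 35 genes changed by more than 2-fold, and all 5 were higher after propranolol. On the TMM scale Neat1, the paraspeckle scaffold RNA, had 1156, 1284, 1382, 1596 and 1166 CPM in treated lungs, against 284, 321, 393, 338 and 346 CPM in untreated lungs. Every treated lung lay far above every untreated lung, a log2 change of 1.97 ± 0.12 (SE, n = 5 each). Malat1 had 1575, 1834, 2187, 2161 and 1705 CPM in treated lungs, against 477, 373, 662, 688 and 667 CPM in untreated lungs. The groups did not overlap, the untreated lungs 1 and 2 being the lowest, and the log2 change was 1.72 ± 0.18.

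Leng8, whose protein belongs to the family of the messenger RNA export factors SAC3 and GANP, had 328, 362, 416, 493 and 343 CPM in treated lungs, against 92.7, 82.1, 114, 104 and 107 CPM in untreated lungs. Its log2 change of 1.96 ± 0.13 was as large as that of Neat1. Pnisr, an SR-related protein of speckles, had 146, 166, 195, 191 and 157 CPM in treated lungs, against 69.4, 59.4, 76.9, 74.2 and 73.7 CPM in untreated lungs. No treated lung overlapped the untreated range, and the log2 change was 1.27 ± 0.10. The speckle scaffolds Srrm2 and Son were also called higher, at log2 changes of 0.74 ± 0.10 and 0.63 ± 0.09, and Nktr at 0.40 ± 0.07, although Son and Nktr fell below 0 under resident scaling and Srrm2 came to 0.01. Srrm1, a coactivator of splicing, and Prpf38b were not called, at -0.07 ± 0.06 and 0.09 ± 0.06.

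SR genes divided in lungs on the TMM scale, with 2 called higher and 5 lower of 9. Srsf5 was called higher, with 385, 418, 440, 429 and 393 CPM in treated lungs, against 227, 221, 207, 224 and 218 CPM in untreated lungs. All treated lungs lay above all untreated lungs, a log2 change of 0.91 ± 0.07, although Srsf5 was not called under resident scaling. Srsf11, known to bind U2AF, was called at 0.36 ± 0.07 but stood at -0.38 under resident scaling. Srsf1, Srsf3, Srsf7, Srsf10 and Srsf2 were called lower, at log2 changes of -0.47 ± 0.11, -0.44 ± 0.09, -0.40 ± 0.08, -0.27 ± 0.08 and -0.21 ± 0.08, and none of them was called with melanocyte level as a covariate. Of these 5 only Srsf7 had no overlap between the groups, and the call of Srsf2 was lost in 7 of the 10 fits that left out a lung. Srsf4 and Srsf6 were not called. The TRA2 genes, whose proteins bind exonic enhancers beside SR proteins, were called lower as well. Tra2b had 72.1, 65.8, 70.7, 62.6 and 74.8 CPM in treated lungs, against 111, 93.1, 89.6, 108 and 105 CPM in untreated lungs, a log2 change of -0.55 ± 0.08 with no overlap. Tra2a changed by -0.25 ± 0.08, and its groups overlapped.

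Among the kinases, Clk1 had 144, 155, 201, 199 and 170 CPM in treated lungs, against 89.5, 73.0, 81.7, 91.9 and 90.5 CPM in untreated lungs, a log2 change of 1.03 ± 0.11. Clk4 had 60.5, 60.7, 75.8, 72.5 and 67.8 CPM in treated lungs, against 47.6, 42.8, 40.6, 43.2 and 46.3 CPM in untreated lungs, a log2 change of 0.61 ± 0.08. Neither kinase overlapped between groups. Clk2 was called higher at 0.34 ± 0.07, and Clk3 and Prpf4b, a kinase of the U4/U6.U5 particle, were not called at 0.13 ± 0.08 and 0.13 ± 0.06. Under resident scaling Clk1 was not called and Clk2 and Clk4 were below 0. The remaining genes called higher, all below 0 under resident scaling, were Snrnp70, the U1 70K protein, at 0.60 ± 0.09, Rbm5, a regulator of apoptosis genes' splicing, at 0.48 ± 0.07, the helicases Ddx5 and Ddx17 at 0.44 ± 0.08 and 0.35 ± 0.07, the U1-associated Luc7l2 and Luc7l3 at 0.24 ± 0.07 and 0.24 ± 0.08, and Rbm39, a U2AF65-like factor, at 0.22 ± 0.07. Luc7l was not called, at -0.02 ± 0.06.

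The cold-induced genes went opposite ways in lungs on the TMM scale, although neither was called under every setting. Cirbp had 85.1, 103, 78.9, 82.7 and 74.3 CPM in treated lungs, against 43.7, 43.9, 45.1, 47.1 and 44.9 CPM in untreated lungs. The untreated lungs lay close together and the treated lungs well above them, a log2 change of 0.92 ± 0.08. Rbm3 had 150, 131, 102, 98.8 and 163 CPM in treated lungs, against 206, 177, 165, 184 and 197 CPM in untreated lungs, a log2 change of -0.52 ± 0.14. All treated lungs lay below all untreated lungs, the treated lungs 3 and 4 lowest and lung 5 nearest to them.

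**Figure D3:**
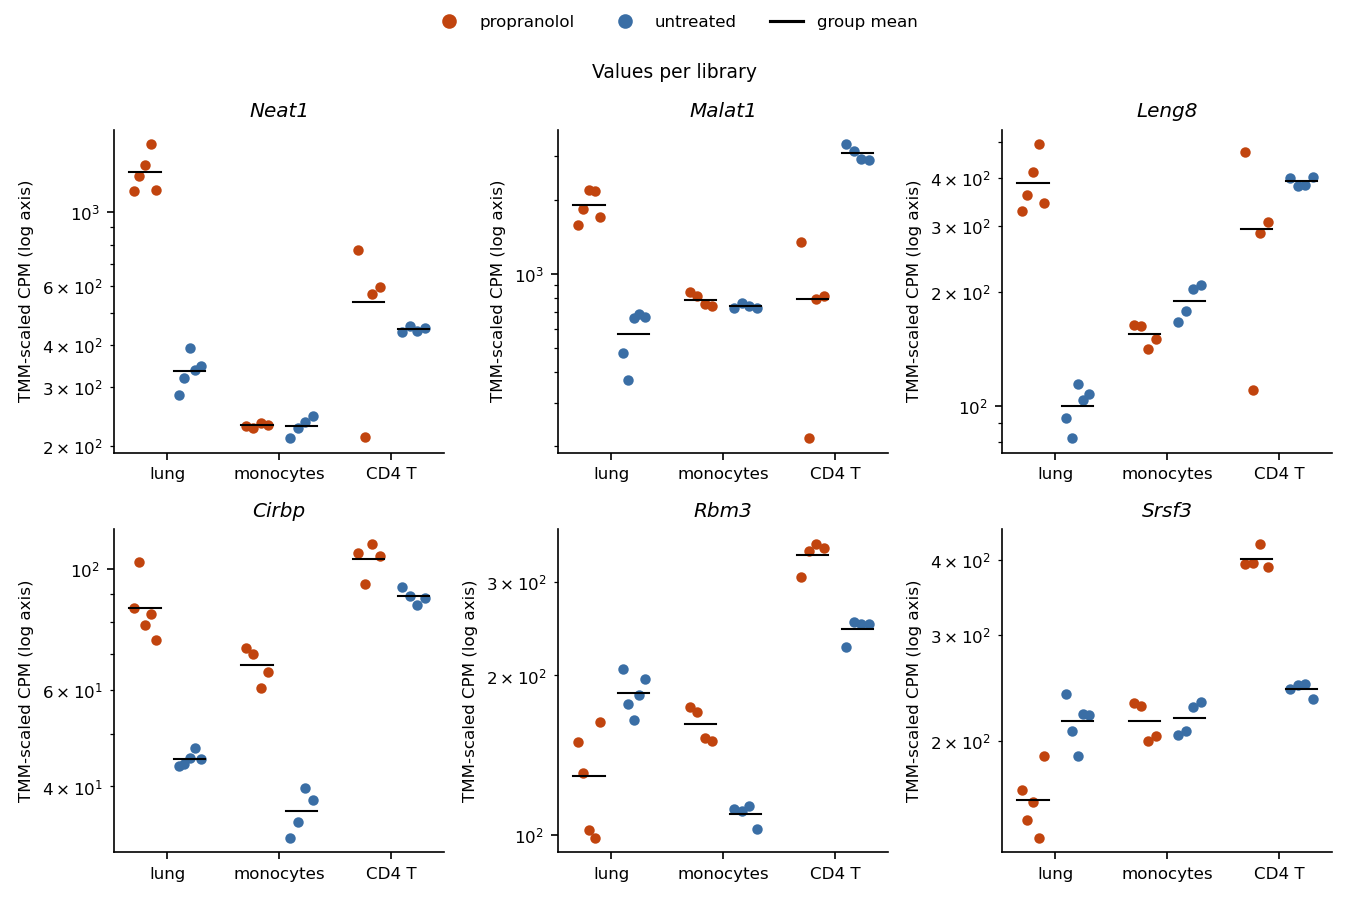
TMM-scaled CPM of each library on a log axis for Neat1, Malat1, Leng8, Cirbp, Rbm3 and Srsf3, propranolol beside untreated, with group means as lines. Neat1 in treated lungs lies between 1156 and 1596 CPM, against 284 to 393 CPM in untreated lungs. Treated CD4 T cell library 2 lies far below the other 3 for Neat1, Malat1 and Leng8.

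Melanoma RNA differed between the groups and among the lungs of a group. Tyrp1, a pigment enzyme gene, had 1723, 860, 451, 231 and 2034 CPM in treated lungs 1 to 5, against 5601, 4776, 3430, 4848 and 4353 CPM in untreated lungs 1 to 5. Treated lung 4, with the least Tyrp1, had the most Neat1 and Leng8, and among untreated lungs number 3, with the least Tyrp1, had the most of both. Among treated lungs the most Rbm3 was in number 5, which had the most Tyrp1. Malat1 was highest in treated lungs 3 and 4, which had the least Tyrp1 of the treated lungs. Among untreated lungs it was highest in number 4, which did not have the least Tyrp1. Cirbp did not follow that order and was highest in treated lung 2. With the mean level of the melanocyte genes as a covariate, 11 of the 35 genes remained called higher and none lower, while 10.3% of all genes were called. The 11 were Neat1 at a log2 change of 1.57 ± 0.13, Leng8 at 1.51 ± 0.14, Malat1 at 1.34 ± 0.26, Pnisr at 0.96 ± 0.13, Cirbp at 0.90 ± 0.14, Srsf5 at 0.79 ± 0.09 and Clk1 at 0.74 ± 0.15, with Srrm2, Son, Nktr and Clk4 between 0.46 and 0.56. Rbm3 and Srsf2, called lower before, stood at 0.06 ± 0.10 each. Melanocyte genes summed to less in every treated lung than in any untreated lung, so this fit cannot fully tell melanocyte level from treatment. Calls lost in it cannot be assigned to either.

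Scaling decided the direction of many smaller lung changes. When the lungs were scaled on markers of resident endothelial, alveolar, smooth muscle and pericyte cells, the median of all genes moved to -0.70, and 4 genes were called higher and 18 lower, where 10.2% of all genes were called higher and 57.6% lower. Neat1 at 1.25 ± 0.13, Leng8 at 1.23 ± 0.14, Malat1 at 1.01 ± 0.17 and Pnisr at 0.54 ± 0.14 were those called higher. Cirbp was not called on this scale, at 0.19, and 12 genes called higher under TMM had a negative log2 change, 3 of them called lower (Luc7l2, Luc7l3 and Rbm39). With library totals alone, 25 genes were called higher and 5 lower, where 44.4% of all genes were called higher and 25.6% lower, and the median of all genes was 0.21.

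**Figure D4:**
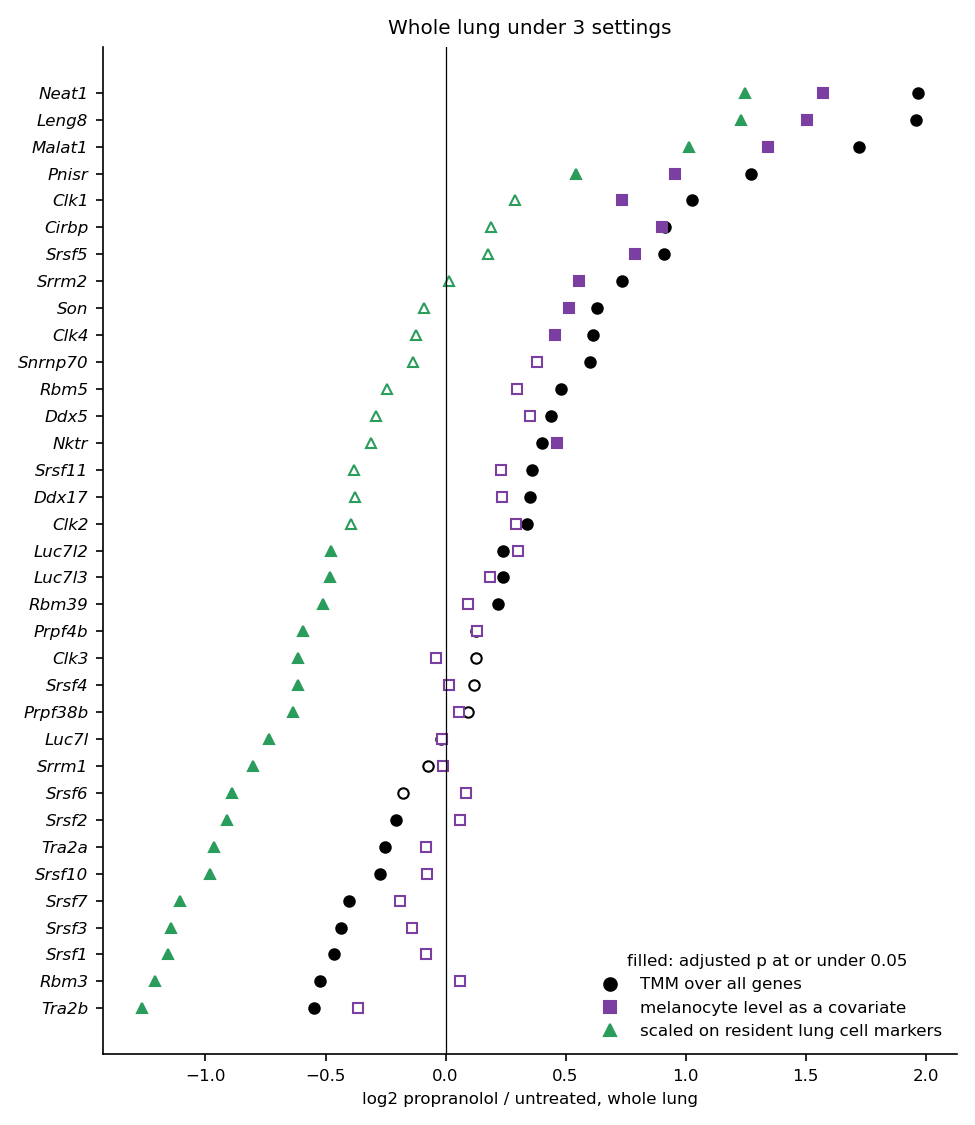
Log2 change in whole lung, propranolol over untreated, of each gene under TMM over all genes, with the melanocyte level as a covariate and scaled on resident lung cell markers. Filled symbols passed an adjusted p of 0.05. Neat1, Leng8, Malat1 and Pnisr stay right of 0 and filled in all 3, while resident scaling moves most other genes to the left.

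In libraries labelled monocytes the cold-induced genes rose together and little else moved by much. Cirbp had 71.9, 70.1, 60.6 and 64.8 CPM in treated libraries, against 32.2, 34.4, 39.7 and 37.9 CPM in untreated libraries, a log2 change of 0.89 ± 0.08 (SE, n = 4 each). Rbm3 had 174, 171, 152 and 150 CPM in treated libraries, against 112, 111, 114 and 102 CPM in untreated libraries, a log2 change of 0.56 ± 0.06. Neither gene overlapped between groups, and both were called in every fit run on these libraries. The 35 genes had no change past 2-fold here.

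Of the 6 genes called lower, Luc7l had 70.0, 67.5, 65.4 and 62.2 CPM in treated libraries, against 81.9, 79.2, 82.5 and 84.8 CPM in untreated libraries, a log2 change of -0.31 ± 0.05. Leng8 had 164, 163, 141 and 150 CPM in treated libraries, against 167, 179, 204 and 209 CPM in untreated libraries, a change of -0.30 ± 0.08. Both were lower in all treated libraries, Leng8 by a narrow gap. Pnisr changed by -0.27 ± 0.08 with overlapping groups. Ddx17 at -0.25 ± 0.05, Nktr at -0.23 ± 0.04 and Luc7l3 at -0.22 ± 0.06 did not overlap. Neat1 and Malat1 were not called, at 0.00 ± 0.05 and 0.09 ± 0.05, and the 9 SR genes, 5 kinases and 2 TRA2 genes had no call. Their log2 changes lay between -0.12 and 0.07.

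Libraries 1 and 2 and libraries 3 and 4 of each monocyte group lay close together, with chi-square values per degree of freedom of 3.52 to 5.22 within these pairs and 12.2 to 35.4 between them; values above 1 mean that even the close libraries differed by more than counting error. The T cell gene Cd3e had 83.5, 75.0, 24.6 and 19.8 CPM in treated libraries 1 to 4, against 7.45, 13, 29.4 and 39 CPM in untreated libraries 1 to 4. In both groups the pair richer in Cd3e had more Leng8, Srsf3, Srsf5 and Clk1. The whole set shifted the same way between pairs. Its median log2 value over the untreated mean was 0.05, 0.04, -0.12 and -0.12 in treated libraries 1 to 4. In untreated libraries 1 to 4 it was -0.06, -0.03, 0.03 and 0.06. The 14 T cell genes summed to 360 to 1534 CPM in treated and 166 to 822 CPM in untreated libraries, with 2 of 14 called higher and 0 lower. Other lymphocyte lists had more calls: all 14 B cell genes were called higher, with sums of 985 to 1118 CPM in treated and 392 to 690 CPM in untreated libraries, as were 8 of 10 CD8 or cytotoxic genes and 4 of 5 CD4 T cell genes. Their part in the results was not tested. With the close libraries summed, 2 against 2, Cirbp at 0.88 ± 0.10 and Rbm3 at 0.55 ± 0.08 were called higher and no gene lower. That fit called 6.67% of all genes.

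In libraries labelled CD4 T cells, Malat1 fell under every scale, and on the TMM scale 7 of 9 SR genes and both TRA2 genes were called higher. Malat1 had 1345, 216, 788 and 811 CPM in treated libraries, against 3352, 3152, 2916 and 2880 CPM in untreated libraries. All treated libraries lay far below all untreated libraries, a log2 change of -1.96 ± 0.39 (SE, n = 4 each). Without treated library 2 it was -1.63 ± 0.15. Neat1 had 773, 213, 568 and 596 CPM in treated libraries, against 437, 459, 442 and 452 CPM in untreated libraries. Treated library 2 lay below all untreated libraries and the other 3 above them, and the log2 change of 0.26 ± 0.28 was not called.

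Clk1 had 890, 417, 730 and 747 CPM in treated libraries, against 277, 287, 292 and 286 CPM in untreated libraries, a log2 change of 1.29 ± 0.18. Every treated library was higher, and it was the one gene of the 35 called past 2-fold upward. Ddx5 had 3526, 2492, 3296 and 3342 CPM in treated libraries, against 1614, 1614, 1693 and 1567 CPM in untreated libraries, a change of 0.96 ± 0.09. Its paralog Ddx17 went the other way, with 450, 320, 420 and 411 CPM in treated libraries, against 701, 676, 700 and 675 CPM in untreated libraries, a change of -0.78 ± 0.09. Neither helicase overlapped between groups.

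Both TRA2 genes were called higher on either scale. Tra2b had 222, 223, 246 and 229 CPM in treated libraries, against 132, 126, 132 and 125 CPM in untreated libraries, a log2 change of 0.84 ± 0.06. Tra2a had 324, 208, 288 and 289 CPM in treated libraries, against 147, 133, 138 and 144 CPM in untreated libraries, a change of 0.98 ± 0.11. Srsf3 had 394, 395, 425 and 389 CPM in treated libraries, against 244, 248, 248 and 234 CPM in untreated libraries, a change of 0.72 ± 0.05. None of the 3 overlapped between groups, and treated library 2 lay close to the others for Tra2b and Srsf3.

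The 7 SR genes called higher ran from Srsf3 at 0.72 to Srsf4 at 0.33 ± 0.08 on the TMM scale, and Srsf1 and Srsf6 were not called. With library totals alone Srsf3 was the only SR gene called higher, Srsf4 stood at -0.06 and Srsf1 was called lower at -0.54 ± 0.07. Srsf5 had 767, 485, 691 and 681 CPM in treated libraries, against 475, 481, 503 and 500 CPM in untreated libraries, a change of 0.42 ± 0.11 with treated library 2 inside the untreated range. Clk3 at 0.82 ± 0.12, Rbm39 at 0.63 ± 0.10 and Srrm1 at 0.39 ± 0.12 were also called higher, and Luc7l3 lower at -0.39 ± 0.15, a call lost in 6 of the 8 fits that left out a library. Clk4 had 152, 75.6, 130 and 130 CPM in treated libraries, against 102, 94.1, 98.3 and 92.3 CPM in untreated libraries, and was not called.

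Both cold-induced genes had higher scaled values. Rbm3 had 307, 343, 354 and 349 CPM in treated libraries, against 227, 252, 250 and 250 CPM in untreated libraries, a log2 change of 0.47 ± 0.06. Cirbp had 107, 94.1, 111 and 106 CPM in treated libraries, against 93, 89.3, 86.2 and 88.7 CPM in untreated libraries, a change of 0.23 ± 0.07. These 2 calls depended on the scaling. TMM factors were 0.867 to 0.879 in treated and 1.14 to 1.15 in untreated libraries, and with library totals alone the median of all genes moved to -0.42. On that scale Rbm3 stood at 0.08 and Cirbp at -0.16, neither called, and 6 of the 35 genes were called higher (Clk1, Tra2a, Ddx5, Tra2b, Clk3 and Srsf3) and 10 lower, where 17.4% of all genes were called higher and 48.7% lower. Malat1 at -2.34 and Ddx17 at -1.17 were among the 10.

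Treated library 2 stood apart for many of the genes. Relative to the untreated mean, the median log2 value of the 35 genes was 0.45, -0.20, 0.32 and 0.29 in treated libraries 1 to 4. Library 2 had the lowest Neat1, Malat1, Leng8 and Pnisr of the 4, with Leng8 at 471, 110, 287 and 306 CPM in treated libraries, against 402, 381, 383 and 405 CPM in untreated libraries. The untreated libraries agreed closely, with a median coefficient of variation of 2.81% over the 35 genes, against 18.8% in treated libraries. Without treated library 1, 7 genes were called lower, where 30.8% of all genes were. Without treated library 2, 24 were called higher and 4 lower, where 30.6% of all genes were called higher and 31.6% lower. Neat1 was among those higher, at 0.54 ± 0.08. Without treated libraries 1 and 2 the counts were 23 higher and 7 lower, where 30.3% of all genes were called higher and 30.8% lower. Leng8 at -0.39 ± 0.04, Pnisr at -0.38 ± 0.04 and Malat1 at -1.92 ± 0.05 were among those lower. Treated libraries 3 and 4, left in that fit, lay close together, with a chi-square per degree of freedom of 5.47. The other pairs of treated libraries had 37.8 to 139, so these SEs leave out most of the spread among treated libraries.

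**Figure D5:**
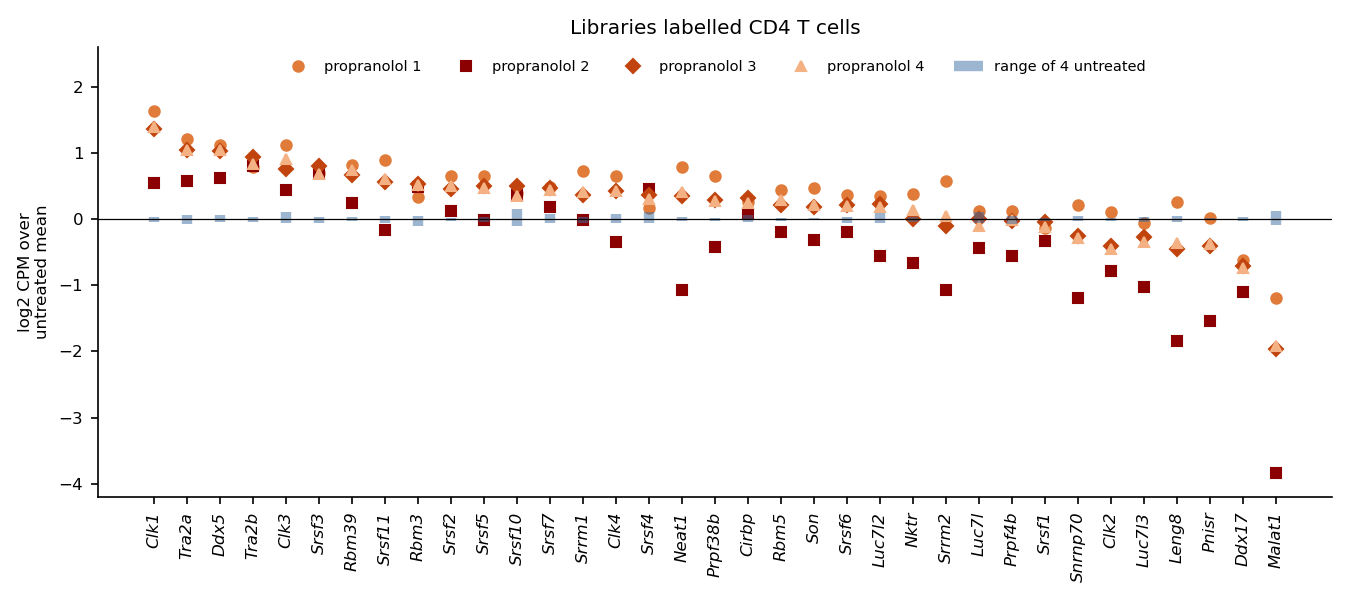
Log2 TMM-scaled CPM of each treated library labelled CD4 T cells over the mean of the 4 untreated libraries, for each of the 35 genes in the order of their log2 change, with the range of the untreated libraries as bars. Treated library 2 has a median of -0.20 and lies lowest for most genes, while the untreated ranges are narrow. The zero line depends on the scaling.

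Other cells' markers moved with treatment in these libraries. The 14 monocyte genes summed to 3928 to 4489 CPM in treated and 536 to 673 CPM in untreated libraries, with 11 of 14 called higher and 0 lower. The 10 neutrophil genes summed to 1123 to 1609 CPM in treated and 313 to 428 CPM in untreated libraries, with 10 of 10 called higher. All 14 B cell genes were called higher on the TMM scale, with a median log2 change of 1.77. Their plain CPM sums overlapped, at 9824 to 11111 CPM in treated and 9838 to 11303 CPM in untreated libraries. The plasma cell gene Igha had 3289 to 6153 CPM in treated and 6569 to 6896 CPM in untreated libraries. Tyrp1 and Sftpc, defining genes of melanoma cells and of alveolar type 2 cells, were at 0 in all 8 libraries. Of the summed lists, alveolar type 1 genes were higher in treated libraries, at 58.9 to 64.1 CPM in treated and 32.6 to 41.5 CPM in untreated libraries. Gene by gene the calls went the other way, with 1 higher and 3 lower of 5 tested. Melanocyte, alveolar type 2 and endothelial lists were lower, at 8.79 to 12 CPM in treated and 21.1 to 22.7 CPM in untreated libraries for melanocyte genes, 92.4 to 105 CPM in treated and 181 to 187 CPM in untreated libraries for alveolar type 2 genes, and 148 to 159 CPM in treated and 253 to 263 CPM in untreated libraries for endothelial genes. The calls also ran against the sum for alveolar type 2 genes, with 3 higher and 1 lower of 5 tested. They were 0 and 2 of 5 for melanocyte genes and 1 and 4 of 11 for endothelial genes. The sums rest on few genes. In untreated libraries 4 of 9 alveolar type 1 and 9 of 12 alveolar type 2 genes averaged under 1 CPM, as did 10 of 15 melanocyte and 8 of 15 endothelial genes. The part of these cells in the results was not tested.

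Across the 3 kinds of material, Cirbp was the only gene of the 35 called higher in each, where the call in CD4 T cell libraries needed TMM scaling and the call in lungs was lost under resident scaling. Rbm3 was called lower in lungs and higher in the libraries labelled monocytes and CD4 T cells, where the lung value was 0.06 with the melanocyte covariate and the CD4 T cell call needed TMM scaling. Its difference of log2 changes was -0.97 ± 0.15 between lungs and monocyte libraries and 0.82 ± 0.15 between CD4 T cell libraries and lungs. Srsf2, Srsf3, Srsf7, Srsf10, Tra2a and Tra2b were called lower in lungs and higher in CD4 T cell libraries on the TMM scale, of which Srsf3, Tra2a and Tra2b were also called higher in CD4 T cell libraries with library totals alone. Leng8, Pnisr and Nktr were called higher in lungs and lower in monocyte libraries, as were Luc7l3 and Ddx17, both also lower in CD4 T cell libraries. Nktr, Luc7l3 and Ddx17 were below 0 in lungs under resident scaling. With close monocyte libraries summed none of these genes was called lower there, and Leng8, Luc7l3 and Pnisr also lost that call with the replicate block. Srsf6, Prpf38b and Prpf4b were called in none.

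In 1 fit of each pair of materials, the propranolol change of lungs minus that of monocyte libraries was called above 0 for 21 of the 35 genes and below 0 for 4, where 57.4% of 20328 genes were called, 32.3% above and 25.2% below. That of CD4 T cell libraries minus lungs was called above 0 for 9 and below 0 for 15. Of 20832 genes 56.2% were called, 24.0% above and 32.2% below. That of CD4 T cell libraries minus monocyte libraries was called above 0 for 14 and below 0 for 3. Of 20023 genes 47.7% were called, 23.8% above and 24.0% below. Leaving out treated CD4 T cell library 2 raised the last 14 to 23, where 24.5% of all genes were called above 0. Leaving out treated lung 5 raised the 4 of the first difference to 9, where 31.3% of all genes were called below 0. Resident scaling of the lungs turned both balances that involve lungs. For lungs minus monocyte libraries it gave 4 above and 15 below 0, where 9.97% of all genes were called above and 48.5% below. For CD4 T cell libraries minus lungs it gave 18 above and 4 below 0, where 39.7% of all genes were called above and 14.8% below. The medians of the 35 genes were 0.41, -0.24 and 0.26, beside 0.17, -0.26 and -0.08 over all genes. The widest differences belonged to Malat1, at -3.85 ± 0.47 for CD4 T cell libraries minus lungs, -2.02 ± 0.44 for CD4 T cell libraries minus monocyte libraries and 1.76 ± 0.21 for lungs minus monocyte libraries. Neat1 changed more in lungs than in monocyte libraries by 2.09 ± 0.15, and Leng8 by 2.38 ± 0.18. Clk1 changed by 0.09 ± 0.23 more in CD4 T cell libraries than in lungs, which was within the error. These differences rest on the same changes that were in view when the genes were picked.

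Other genes of the splicing machinery were read from 7 lists, with calls from the same fits. In lungs, 43 of 45 core spliceosome genes were called lower and 0 higher, with a median log2 change of -0.65 against 0.03 over all genes. Snrpd2, an Sm ring protein, averaged 27.0 CPM in treated and 51.9 CPM in untreated lungs (-0.95 ± 0.11). Of 26 hnRNP genes, whose proteins coat nuclear transcripts, 18 were called lower and 2 higher, with Hnrnpc at -0.65 ± 0.08 and Hnrnph3 at 0.87 ± 0.12. Of 16 paraspeckle protein genes, 12 were called lower and 2 higher, among them Nono, a core paraspeckle protein, at -0.82 ± 0.12, while Neat1 itself was higher. With the melanocyte covariate these counts came to 3, 1 and 0 lower for the core, hnRNP and paraspeckle lists, and to 0, 0 and 1 higher. That fit cannot fully tell melanocyte level from treatment.

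Of 33 other SR-related genes tested in lungs, 7 were called higher and 14 lower, led by the cyclin L genes Ccnl2 at 1.01 ± 0.09 and Ccnl1 at 0.56 ± 0.07. Of 24 other noncoding RNA genes, 11 were called higher and 6 lower, with Firre at 0.76 ± 0.07 and Dleu2 at 1.26 ± 0.13. Under resident scaling the first list had 0 higher and 27 lower and the second 5 higher and 11 lower, and with library totals alone 14 and 8, and 13 and 1. Of 20 genes of nuclear RNA decay and m6A, 5 were called higher and 10 lower, with library totals alone 8 and 6, and under resident scaling 0 and 16. Zfc3h1, which routes nuclear poly(A) RNA to the exosome, was higher by 0.79 ± 0.08. Ogt, the O-GlcNAc transferase, was on this list although it modifies proteins, and was higher by 1.07 ± 0.11.

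Heat shock genes, which are known to respond to temperature in the opposite sense to Cirbp and Rbm3, were read beside the cold-induced genes. In lungs 18 of 20 were called lower and 0 higher, with a median of -1.26, and Hsph1, a cytosolic chaperone, averaged 56.0 CPM in treated and 191 CPM in untreated lungs (-1.77 ± 0.14). In monocyte libraries 15 of 20 were called lower and 0 higher, with a median of -0.43 against 0.02 over all genes, and Hsph1 averaged 77.5 CPM in treated and 221 CPM in untreated libraries (-1.51 ± 0.04). In CD4 T cell libraries 15 were called higher and 2 lower, with a median of 0.49, and with library totals alone 10 higher and 5 lower, with a median of 0.10. The lists were drawn up with earlier results of these data known.

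In monocyte libraries the other lists moved little. Of 26 hnRNP genes 7 were called higher and 1 lower, of 45 core spliceosome genes 8 and 1, and of 16 paraspeckle protein genes 6 and 1, with medians of 0.05, 0.10 and 0.10. With close libraries summed the counts were 0 and 0, 0 and 0, and 2 and 0. The other SR-related genes had 5 higher and 5 lower of 33, the other noncoding RNA genes 2 and 4 of 26, and the decay and m6A genes 3 and 4 of 20.

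In CD4 T cell libraries 21 of 26 hnRNP genes were called higher and 1 lower, with a median of 0.50 against -0.04 over all genes, and Hnrnph2, Ptbp1 and Hnrnpc were higher by 1.17 ± 0.05, 1.06 ± 0.06 and 1.06 ± 0.06. Of 45 core spliceosome genes 24 were called higher and 4 lower. With library totals alone these became 10 higher and 8 lower, and 7 higher and 22 lower, so that the direction of the core list turned with the scaling. Paraspeckle protein genes had 7 higher and 2 lower of 16, and 5 and 9 with library totals alone. Sfpq averaged 1184 CPM in treated and 455 CPM in untreated libraries (1.38 ± 0.06) and Pspc1 was higher by 1.44 ± 0.07. Cdk11b, a kinase that acts with the cyclin L proteins, was higher by 1.64 ± 0.17, and the noncoding host genes Mir155hg and Mir22hg by 3.54 ± 0.32 and 2.90 ± 0.21. The other SR-related genes had 12 higher and 6 lower of 34, the other noncoding RNA genes 14 and 6 of 25, and the decay and m6A genes 12 and 3 of 20; with library totals alone these came to 7 and 18, 5 and 8, and 2 and 10.

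The transcript models of the set differed from those of other genes. In GENCODE M21, 30 of the 33 protein-coding members (90.9%) had at least 1 transcript annotated as a retained intron, against 55.1% of the 15149 protein-coding genes tested in lungs, and 30 (90.9%) had a transcript annotated for nonsense-mediated decay, against 26.5%. They had a median of 10 transcripts, against 5. Clk1 had 7 retained-intron transcripts of 13, Rbm5 13 of 24 and Srsf11 11 of 19, while Srsf10, Ddx17 and Pnisr had 0. The share of retained-intron transcripts did not separate the lung calls: its median was 31.7% among the 18 coding genes called higher, 31.0% among the 8 called lower and 25% among the 7 not called. Well-studied genes have more annotated transcripts, and counts per gene do not tell transcripts of a gene apart.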

How the data were processed

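Raw counts per gene, whole numbers for 26 libraries in 2 tables, were deposited by the authors. Per the submitters' processing notes, STAR 2.7.9, featureCounts and Subread 2.0.3 were used with build GRCm39. No source used here says if strand was counted, so overlapping and antisense genes are uncertain. Symbols matched 52083 of 55416 genes (94.0%).

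Groups came from the labels. Each comparison used its own groups: filterByExpr (minimum count 10), TMM scaling and the quasi-likelihood test of edgeR 4.0.16 (R 4.3.3), with Benjamini-Hochberg adjustment over all genes at 0.05. Differences between materials were contrasts over 4 groups. Exon lengths and transcript types came from GENCODE M21 (GRCm38). The scripts were tested on simulated data.

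Members and lists were chosen with earlier results of these data known. Values per library are given for Neat1, Malat1, Leng8, Rbm3, Cirbp, Clk1, Clk4, Srsf5, Luc7l and the 4 members of smallest p in each comparison, where they bear on a result; 4 was set after the values were seen, and Ddx17 was added likewise. List genes named are among the 3 called ones of smallest p per comparison, with at least 1 CPM. Alternatives were DESeq2 1.42.0 (size factors, test), limma-voom (limma 3.58.1), no filter, a minimum mean of 5 CPM, a replicate block, leaving out each library, resident scaling and a melanocyte covariate. Library totals without TMM, summed close monocyte libraries and leaving out treated CD4 T cell libraries 1 and 2 were chosen after seeing the data.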

Additional observations from a re-analysis of the deposited data

Results flagged for a closer look

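A library stood far from the others of its group in 3 of 210 combinations of gene and group, where chance gives about 1 in 20. Rbm3 had 227 scaled CPM in untreated library 1 labelled CD4 T cells, below the other 3 untreated libraries. Rbm5 had 272 scaled CPM in untreated library 2 labelled CD4 T cells, and Rbm39 had 230 scaled CPM in untreated lung 2, each below the rest of its group.

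For 9 genes given library by library, the propranolol change was compared between each pair of materials, and the test of the difference passed the threshold 18 times. Of all genes, 57.4% passed for lungs minus monocyte libraries, 56.2% for CD4 T cell libraries minus lungs and 47.7% for CD4 T cell minus monocyte libraries. Lungs minus monocyte libraries gave 2.38 for Leng8, 2.09 for Neat1, 1.76 for Malat1, 1.19 for Clk1, 1.09 for Srsf5, 0.67 for Clk4, 0.41 for Luc7l and -0.97 for Rbm3. CD4 T cell libraries minus lungs gave -3.85 for Malat1, -2.55 for Leng8, -1.87 for Neat1, -0.86 for Cirbp, -0.66 for Srsf5 and 0.82 for Rbm3. CD4 T cell libraries minus monocyte libraries gave -2.02 for Malat1, -0.64 for Cirbp, 1.35 for Clk1 and 0.50 for Srsf5. The values are differences of log2 changes, and the genes were picked with the changes in view.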

How the results depend on the processing

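In lungs, resident scaling gave 4 members called higher and 18 lower, the melanocyte covariate 11 and 0, and the filter of at least 5 CPM and library totals without TMM 5 lower each. Under resident scaling the log2 change turned negative for Srsf11 (-0.38), Clk2 (-0.39), Clk4 (-0.12), Rbm5 (-0.24), Rbm39 (-0.51), Luc7l2 (-0.48), Luc7l3 (-0.48), Snrnp70 (-0.14), Ddx5 (-0.29), Ddx17 (-0.38), Son (-0.091) and Nktr (-0.31), and the covariate turned Srsf2 (0.062) and Rbm3 (0.061) positive. Among differences, resident scaling turned Cirbp (0.011) and Srsf5 (0.22) for CD4 T cell libraries minus lungs and Clk4 (-0.18) and Luc7l (-0.42) for lungs minus monocyte libraries. It gave 18 members above and 4 below 0 in the first and 4 above and 15 below in the second, where the 5 CPM filter gave 2 below. Over all genes, resident scaling called 39.7% above and 14.8% below in the first and 9.97% above and 48.5% below in the second. In monocyte libraries the calls of lower members came to 3 with the replicate block and 0 with close libraries summed. In CD4 T cell libraries they came to 5 with limma-voom, with no filter, with the 5 CPM filter and with the replicate block, to 10 without TMM, with 6 higher, and to 7 without treated libraries 1 and 2. Without TMM, Srsf4 (-0.061) and Cirbp (-0.16) turned negative there. Leaving out treated libraries 1 and 2 gave 17 members above 0 for CD4 T cell libraries minus lungs and 23 for CD4 T cell minus monocyte libraries. Of all genes, 27.2% and 23.5% were called above 0 in these fits. The cause of these moves was not tested.

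With each library left out in turn, members called lower ranged from 2 to 7 in CD4 T cell libraries, those above 0 from 12 to 23 for CD4 T cell minus monocyte libraries, and those below 0 from 3 to 9 for lungs minus monocyte libraries. The highest values came without treated CD4 T cell library 1, without treated CD4 T cell library 2 and without treated lung 5. In these fits 30.8%, 24.5% and 31.3% of all genes were called in the same sense. Deviations of same-numbered libraries had correlations of -0.05 to 0.37 in lungs, -0.31 to -0.13 in monocyte libraries and -0.02 to 0.04 in CD4 T cell libraries. With so few libraries such values cannot settle if the number was a pairing. In lungs the replicate block left 20 higher and 8 lower. In monocyte libraries it left 2 higher and 3 lower, and 19.4% of all genes were called, against 30.5% without it. Depth did not limit the members, whose lowest count was 816.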
